A study of Mus musculus with 61 samples.

Results

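Mitosis genes are the genes whose products carry a cell from the end of DNA replication through chromosome segregation to the split into daughter cells. A list of 46 of them was followed through mouse pancreatic ductal organoid cells made to express the transcription factors Ngn3, Pdx1 and MafA. The members were taken by name from a list of G2/M and mitosis genes, all 46 were among the 46078 genes of the count table, and all 46 were among the 24004 genes tested. They were grouped by textbook role into mitotic entry (8 genes), the chromosomal passenger complex (4), the spindle checkpoint (5), anaphase control (5), the kinetochore (5), kinesins and spindle proteins (10), cytokinesis (3), chromosome structure (5) and the proliferation marker Mki67 (1).

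Entry into mitosis is driven by the kinase Cdk1 bound to a B-type cyclin. The kinases Aurka, Aurkb and Plk1 build and correct the spindle, the checkpoint holds back the anaphase-promoting complex until every kinetochore is attached, and Cdc20 then lets that complex destroy securin and cyclin B. Most of these genes are transcribed in a wave late in the cell cycle, so that in a mixed pool of cells their RNA follows how many cells are cycling as well as how much each cell makes. In the developing pancreas, Ngn3 is known for switching duct-like progenitors to the endocrine fate, and its phosphorylation on serine-proline sites by cyclin-dependent kinases ties its activity to the cell cycle.

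RNA of 50-cell pools was sequenced from C57BL/6 ductal organoids that carried doxycycline-inducible lentiviral vectors, GFP with Ngn3, LSS-Orange with Pdx1 and Tomato with MafA, beside a vector for the transactivator. Cells were sorted by colour after 8 days of induction. Ngn3 was either the wild type (WT cultures) or a phospho-mutant form whose serines in serine-proline sites are alanine (6SA cultures). In each kind of culture the 6 sorted conditions were Pdx1, MafA, Pdx1+MafA, Ngn3+Pdx1, Ngn3+MafA and Ngn3+Pdx1+MafA, which gives 12 conditions in all. The Ngn3-negative cells therefore came from dishes that also held Ngn3-positive cells, all cells had been through infection and doxycycline, and neither uninfected cells nor cells with Ngn3 alone were analysed here. Biological replicates 1 and 2 were at passage 2 of the organoids and replicate 3 at passage 5, so passage and replicate 3 cannot be told apart. WT Pdx1, WT MafA, 6SA Pdx1 and 6SA Ngn3+Pdx1+MafA had replicates 1 and 2 only, and values below are given in the order of replicates 1, 2 and 3.

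Of 61 libraries, 58 passed the quality limits and made 32 samples once technical repeats were summed, with 2579583 to 19461008 gene counts each. No 2 libraries held identical counts. Levels are counts per 1000000 (CPM) scaled by TMM factors, and 3 counts, taken as the limit of detection, equal 0.136 to 1.01 CPM depending on the sample. That limit covers counting error only. The sort was checked with the genes of the 3 factors. Neurog3, which encodes Ngn3, had 7.87 to 329 CPM in the 17 Ngn3-positive samples and at most 0.788 CPM in the 15 others. Pdx1 ranged from 9.84 to 191 CPM in sorted Pdx1 cells and from 3.21 to 30.6 CPM in the rest, so these ranges overlapped. Mafa was low, at 0 to 12.7 CPM in sorted MafA cells and at most 0.116 CPM in the rest. All 12 duct markers had a median over 1 CPM in the Ngn3-positive and in the Ngn3-negative samples. Of all samples 6SA MafA replicate 3 stood apart. It had 14574 detected genes and 251 gene counts per spike-in count, the lowest on both measures, and 26 of the 46 mitosis genes were detected in it. Its summed level of the 46 was 615 CPM with TMM factors and 429 CPM by plain library totals.

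The question put to the 46 genes was whether cells that expressed Ngn3 differed from the cells of the same cultures that did not. Over the 6 matched pairs of conditions, 44 of 46 mitosis genes were lower with Ngn3 and none was higher, by edgeR's quasi-likelihood test with Benjamini-Hochberg adjustment over all genes tested. Among all genes, 10.5% were called lower and 11.1% higher. The median log2 fold change of the 46 was -2.91, against 0.07 for all genes tested. The 44 ranged from Ttk, a checkpoint kinase, at -6.06 to Ncapd2, a condensin subunit, at -1.42. Bub3 and Pttg1 were the members not called. In bulk pools, fewer dividing cells and less RNA of these genes per cell cannot be told apart.

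**Figure D1:**
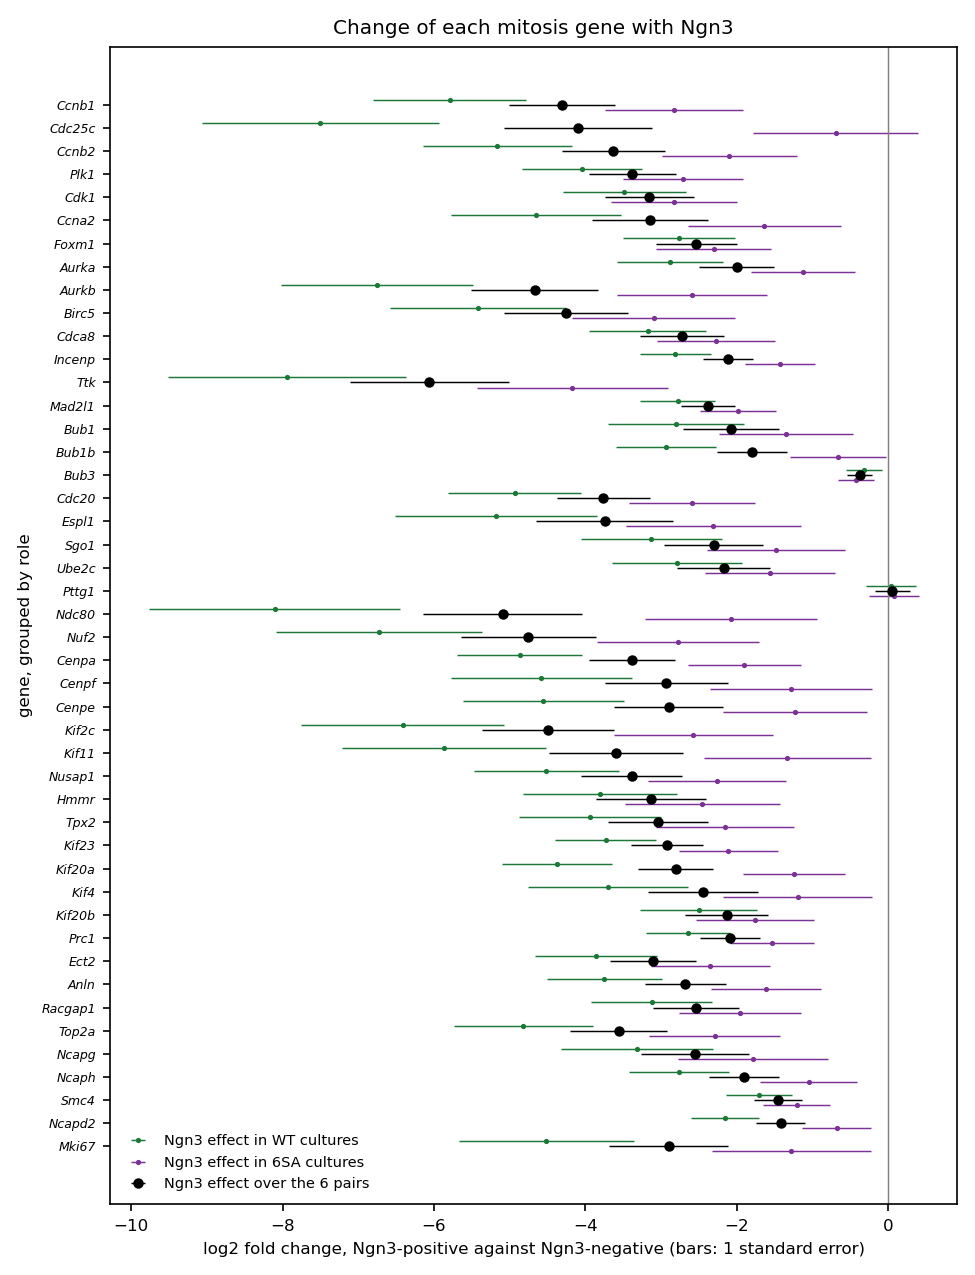
Log2 fold change of each of the 46 mitosis genes (rows, grouped by role in the order of the text) between Ngn3-positive and Ngn3-negative cells, over the 6 pairs (black), in WT cultures (green) and in 6SA cultures (purple), with bars of 1 standard error. The black points of Bub3 (-0.38) and Pttg1 (0.06) sit near 0 and the other 44 lie at -1.42 or further left.

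The size of a fold depends on libraries without counts. No read of Cdc25c, Ttk, Espl1, Ndc80, Nuf2 and Kif2c was counted in any WT Ngn3+MafA sample, and none of Cdc25c, Aurkb, Ttk and Ndc80 in any WT Ngn3+Pdx1+MafA sample. For these 7 genes the fitted change is no bound. With 3 counts over the condition in place of 0, Ttk was at least 4.96 lower on the log2 scale over the 6 pairs and Ndc80 at least 3.95 lower, and the median of the 46 stayed at -2.91. Further members were near the limit of detection, so their folds are uncertain too. Among them, Kif11 had at most 3 counts in 10 of 17 Ngn3-positive samples, Ccnb1 and Birc5 in 8 and Cenpf in 7. Each had so few in 1 of 15 Ngn3-negative samples.

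Other measures of the samples moved with Ngn3 too, and their part in these differences was not tested. The 12 endocrine markers summed to 615 to 14678 CPM in Ngn3-positive samples and to 1.32 to 11.2 CPM in Ngn3-negative ones, with 11 of 12 called higher, led by Scg3, Neurod1 and Pcsk1. Of the 12 duct markers 8 were called lower, among them Muc1 and Krt19, and their sum was 2851 to 23631 CPM with Ngn3 and 20223 to 68628 CPM without. Among all genes 10.5% were called lower and 11.1% higher. The ratio of gene counts to spike-in counts had a median of 801 (412 to 1625) with Ngn3 and 1165 (251 to 2073) without. Of the other cell types, mesenchymal markers summed to a median of 0.164 CPM (0 to 296) with Ngn3 and 0.672 CPM (0 to 13.2) without, with none of the 8 over a median of 1 CPM. The 6 endothelial markers summed to 0.814 CPM (0 to 27.2) and 0.174 CPM (0 to 2.24), again with none over a median of 1 CPM. Immune markers, 8 in all, summed to 14.3 CPM (0.674 to 43.7) and 17.7 CPM (2.47 to 28.0), and the 10 acinar markers to 11.8 CPM (2.22 to 49.7) and 5.86 CPM (0.617 to 17.1). Of those tested, Cela1 among 4 acinar markers and Csf1r among 3 immune markers were called lower, and none of 4 mesenchymal and 5 endothelial markers was called.

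Summed over the 46 genes, the level was 1912 and 6210 CPM in WT Pdx1 cells, 1461 and 1287 CPM in WT MafA cells and 1180, 6785 and 1428 CPM in WT Pdx1+MafA cells. With wild-type Ngn3 it was 347, 1873 and 730 CPM beside Pdx1, 360, 270 and 426 CPM beside MafA, and 282, 277 and 335 CPM beside both. All WT Ngn3-positive samples except replicate 2 of Ngn3+Pdx1 lay below all WT Ngn3-negative samples. In 6SA cultures the sum was 1375 and 4898 CPM with Pdx1, 611, 1419 and 615 CPM with MafA, and 830, 3916 and 807 CPM with Pdx1+MafA. With the phospho-mutant it was 575, 2903 and 527 CPM with Ngn3+Pdx1, 433, 511 and 448 CPM with Ngn3+MafA, and 338 and 651 CPM with Ngn3+Pdx1+MafA. Here the ranges met: Ngn3+Pdx1 replicate 2 exceeded 6 of the 8 Ngn3-negative samples, and Ngn3+Pdx1+MafA replicate 2 exceeded MafA replicates 1 and 3. Bub3 alone gave 82.0 to 338 CPM to each of these sums.

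**Figure D2:**
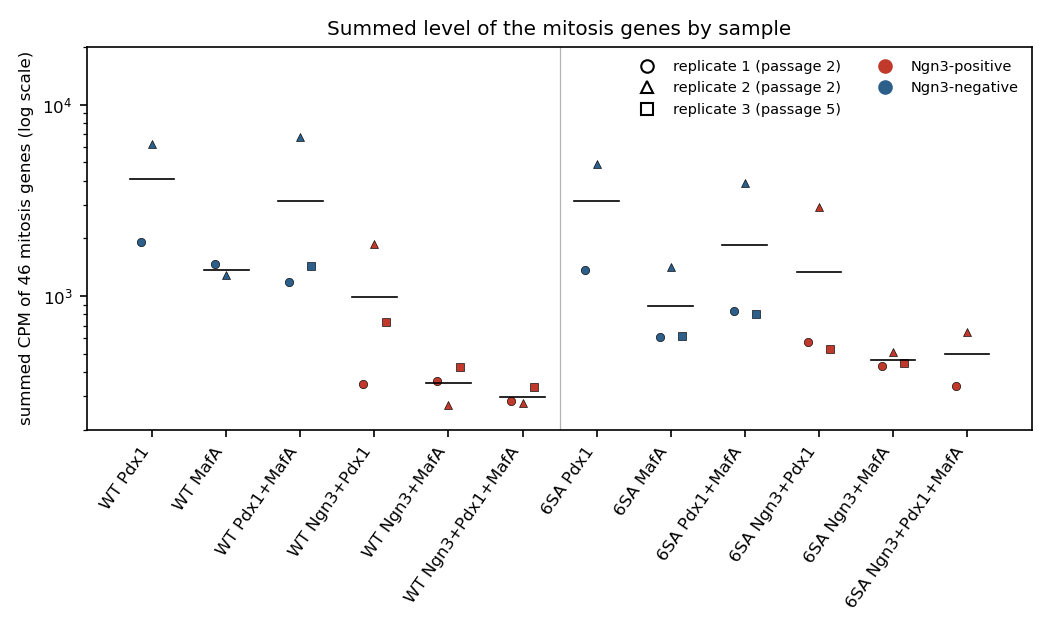
Summed CPM of the 46 mitosis genes in each of the 32 samples (log axis) by condition, with Ngn3-positive conditions in red, Ngn3-negative ones in blue, marker shape for the replicate and a line at the mean. Samples of replicate 2 (triangles) that hold Pdx1 sit highest in their condition, at 1873 to 6785 CPM in all such conditions but Ngn3+Pdx1+MafA.

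Replicate 2 stood apart in some conditions. Its summed level was 3.25 times that of replicate 1 in WT Pdx1 cells, 5.75 times in WT Pdx1+MafA cells and 5.40 times in WT Ngn3+Pdx1 cells. In 6SA cultures the same ratios were 3.56, 4.72 and 5.05. With all 3 factors the ratio was 0.983 in WT and 1.92 in 6SA cultures. It was 0.881 in WT MafA and 0.749 in WT Ngn3+MafA cells, and 2.32 in 6SA MafA and 1.18 in 6SA Ngn3+MafA cells, so the higher level of replicate 2 was seen neither in every condition with Pdx1 nor only in those. Within replicate 1 the Ngn3-positive samples summed to 282 to 575 CPM and the Ngn3-negative ones to 611 to 1912 CPM, which do not overlap with TMM factors. By plain library totals they did, with 652 CPM in 6SA Ngn3+Pdx1 and 580 CPM in 6SA MafA cells of replicate 1. Within replicate 2 the ranges were 270 to 2903 CPM and 1287 to 6785 CPM, and within replicate 3 they were 335 to 730 CPM and 615 to 1428 CPM, both overlapping. Without replicate 2 in any condition 34 genes were called over the 6 pairs, and without replicate 3, which leaves passage 2 only, 44 were.

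Technical repeats, which are libraries of the same biological replicate, differed as well. In the 17 samples with repeats, the highest library had 1.04 to 3.49 times the summed level of the lowest (median 1.70). The widest were 6SA Pdx1+MafA replicate 1, whose 3 libraries ranged from 415 to 1447 CPM by library totals, and WT Pdx1+MafA replicate 1, from 559 to 1827 CPM.

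Among the genes of mitotic entry all 8 were lower with Ngn3, with log2 fold changes between -4.31 and -2.004. Ccnb1 encodes cyclin B1, the activating partner of Cdk1 (chr13:100778650-100786570, GRCm38). In WT cultures Ccnb1 stood at 17.8 and 63.2 CPM with Pdx1, 13.8 and 14.5 CPM with MafA, and 12.7, 105 and 9.63 CPM with Pdx1+MafA. With wild-type Ngn3 it stood at 0.763, 9.11 and 3.94 CPM with Ngn3+Pdx1, 0.242, 0 and 0 CPM with Ngn3+MafA, and 0.567, 0.146 and 0 CPM with Ngn3+Pdx1+MafA. All 9 Ngn3-positive samples lay below all 7 Ngn3-negative ones. The 6SA cultures gave Ccnb1 levels of 9.02 and 59.1 CPM with Pdx1, 3.86, 13.9 and 0 CPM with MafA, and 9.89, 45.95 and 3.86 CPM with Pdx1+MafA. With the phospho-mutant Ccnb1 was 4.62, 55.5 and 0.318 CPM with Ngn3+Pdx1, 0.489, 0.934 and 0.306 CPM with Ngn3+MafA, and 0.0678 and 1.82 CPM with Ngn3+Pdx1+MafA. These ranges overlapped, since Ngn3+Pdx1 replicate 2 was near the top of the range and MafA replicate 3 held no read. Over the 6 pairs Ccnb1 was called lower (log2 fold change -4.31, SE 0.70, adjusted p = 3.52e-05).

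Cdk1, the kinase that starts mitosis (chr10:69335146-69352938), was at 96.6 and 324 CPM with Pdx1, 75.97 and 42.9 CPM with MafA, and 61.7, 348 and 62.7 CPM with Pdx1+MafA in WT cultures. With Ngn3 added, Cdk1 was at 3.67, 129.8 and 34.1 CPM with Ngn3+Pdx1, 7.50, 3.91 and 12.1 CPM with Ngn3+MafA, and 1.05, 0 and 8.64 CPM with Ngn3+Pdx1+MafA. Replicate 2 of Ngn3+Pdx1 fell inside the Ngn3-negative range and the other 8 fell below it. In 6SA cultures Cdk1 had 56.4 and 311 CPM with Pdx1, 21.7, 68.7 and 45.1 CPM with MafA, and 26.7, 299 and 51.7 CPM with Pdx1+MafA. Its levels with the phospho-mutant were 16.2, 163 and 20.1 CPM with Ngn3+Pdx1, 5.74, 7.27 and 9.32 CPM with Ngn3+MafA, and 0 and 11.8 CPM with Ngn3+Pdx1+MafA. Again only replicate 2 of Ngn3+Pdx1 reached the Ngn3-negative range (over the 6 pairs log2 fold change -3.16, SE 0.59, adjusted p = 0.000195). The other 6 genes of this group moved alike: Ccnb2, cyclin B2 (-3.63), Ccna2, cyclin A2 (-3.15), Cdc25c, the phosphatase that activates Cdk1 (-4.10), Plk1, the polo-like kinase (-3.38), Aurka, the spindle-pole kinase (-2.004), and Foxm1, a transcription factor of late cell cycle genes (-2.54), all on the log2 scale.

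The 4 subunits of the chromosomal passenger complex, which corrects faulty attachments and guides cytokinesis, were all lower. Incenp is its scaffold (chr19:9872296-9899551). Without Ngn3, WT cultures had Incenp at 45.7 and 50.3 CPM with Pdx1, 39.3 and 24.7 CPM with MafA, and 31.9, 62.05 and 10.8 CPM with Pdx1+MafA. With Ngn3, Incenp was at 7.35, 20.6 and 5.41 CPM with Ngn3+Pdx1, 9.11, 2.48 and 2.57 CPM with Ngn3+MafA, and 2.51, 2.34 and 3.99 CPM with Ngn3+Pdx1+MafA. Of the 9 Ngn3-positive samples, replicate 2 of Ngn3+Pdx1 was the only sample above the lowest Ngn3-negative one. In 6SA cultures Incenp had 53.03 and 30.8 CPM with Pdx1, 20.8, 10.7 and 5.27 CPM with MafA, and 25.8, 31.1 and 7.29 CPM with Pdx1+MafA. The phospho-mutant samples had 14.5, 19.8 and 1.75 CPM with Ngn3+Pdx1, 10.9, 9.86 and 10.4 CPM with Ngn3+MafA, and 6.24 and 2.87 CPM with Ngn3+Pdx1+MafA. The 6SA ranges overlapped widely, and only 2 of 8 Ngn3-positive samples lay below all Ngn3-negative ones. Incenp had the smallest change of the 4 over the 6 pairs (log2 fold change -2.12, SE 0.33, adjusted p = 2.21e-05), ahead of Cdca8, borealin (-2.73), Birc5, survivin (-4.26), and Aurkb, the kinase of the complex (-4.67).

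In the spindle checkpoint, which delays anaphase while a kinetochore is unattached, 4 of 5 genes were lower. Mad2l1, the Mad2 protein that binds Cdc20 (chr6:66535390-66547220), was at 39.04 and 142 CPM with Pdx1, 62.9 and 27.8 CPM with MafA, and 30.6, 184 and 36.2 CPM with Pdx1+MafA in WT cultures. Beside Ngn3 it was at 7.70, 27.99 and 21.00 CPM with Ngn3+Pdx1, 10.2, 12.7 and 8.02 CPM with Ngn3+MafA, and 6.32, 5.85 and 4.25 CPM with Ngn3+Pdx1+MafA. Only replicate 2 of Ngn3+Pdx1 passed the lowest Ngn3-negative value, and barely. In 6SA cultures Mad2l1 was at 25.2 and 156 CPM with Pdx1, 14.6, 43.3 and 28.7 CPM with MafA, and 18.02, 137 and 46.01 CPM with Pdx1+MafA. With the phospho-mutant Mad2l1 was at 8.75, 78.8 and 26.4 CPM with Ngn3+Pdx1, 13.3, 12.3 and 11.8 CPM with Ngn3+MafA, and 5.22 and 6.69 CPM with Ngn3+Pdx1+MafA. Replicates 2 and 3 of Ngn3+Pdx1 lay inside the Ngn3-negative range and the other 6 below it. Mad2l1 had the lowest p of all 46 over the 6 pairs (log2 fold change -2.38, SE 0.35, adjusted p = 1.10e-05). Ttk, the Mps1 kinase, the kinase Bub1 and its relative Bub1b changed by -6.06, -2.07 and -1.80 on the log2 scale.

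Bub3, a WD-repeat protein that brings Bub1 and Bub1b to kinetochores, was the member of the checkpoint that was not called. In WT cultures Bub3 had 191 and 219 CPM with Pdx1, 176 and 126 CPM with MafA, and 218, 338 and 169 CPM with Pdx1+MafA. With Ngn3 it had 180.3, 114 and 211 CPM with Ngn3+Pdx1, 164, 147 and 230.2 CPM with Ngn3+MafA, and 94.1, 128 and 154 CPM with Ngn3+Pdx1+MafA. In the 6SA cultures it had 189 and 257 CPM with Pdx1, 142, 232 and 292 CPM with MafA, and 166, 262 and 205 CPM with Pdx1+MafA and, with the phospho-mutant, 145, 189.6 and 267 CPM with Ngn3+Pdx1, 210.2, 99.9 and 231 CPM with Ngn3+MafA, and 155 and 81.96 CPM with Ngn3+Pdx1+MafA. The ranges of Ngn3-positive and Ngn3-negative samples overlapped in both kinds of culture (log2 fold change -0.38, SE 0.17, adjusted p = 0.119).

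Anaphase control held 5 genes, of which 4 were lower. Cdc20 activates the anaphase-promoting complex (chr4:118432901-118437352). The WT cultures had Cdc20 at 53.1 and 111 CPM with Pdx1, 39.8 and 26.8 CPM with MafA, and 28.9, 249 and 19.02 CPM with Pdx1+MafA. With Ngn3 it fell to 0, 3.71 and 15.1 CPM with Ngn3+Pdx1, 1.86, 3.91 and 2.42 CPM with Ngn3+MafA, and 0, 0 and 1.73 CPM with Ngn3+Pdx1+MafA. No Ngn3-positive WT sample reached the Ngn3-negative range, and here replicate 3, not 2, was highest with Ngn3+Pdx1. The 6SA cultures had Cdc20 at 24.6 and 119 CPM with Pdx1, 10.4, 25.6 and 1.58 CPM with MafA, and 32.03, 99.4 and 7.29 CPM with Pdx1+MafA. With the phospho-mutant it was 25.4, 76.8 and 3.98 CPM with Ngn3+Pdx1, 3.91, 4.26 and 2.60 CPM with Ngn3+MafA, and 0.475 and 2.52 CPM with Ngn3+Pdx1+MafA. Of these 8 samples 7 lay inside the Ngn3-negative range, whose lowest value was that of the MafA sample of low content (over the 6 pairs log2 fold change -3.76, SE 0.62, adjusted p = 4.13e-05). Ube2c, the ubiquitin-conjugating enzyme of the complex, Espl1, the protease separase, and Sgo1, the guardian of centromeric cohesion, changed by -2.17, -3.75 and -2.31 on the log2 scale.

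Pttg1, securin, which inhibits separase until anaphase, did not share the pattern. It was at 42.6 and 39.96 CPM with Pdx1, 47.1 and 28.99 CPM with MafA, and 47.4, 34.3 and 59.1 CPM with Pdx1+MafA in WT cultures. With Ngn3 it was at 32.7, 33.4 and 56.6 CPM with Ngn3+Pdx1, 40.01, 20.3 and 31.8 CPM with Ngn3+MafA, and 84.6, 48.3 and 57.97 CPM with Ngn3+Pdx1+MafA. The 6SA values were 31.6 and 34.9 CPM with Pdx1, 24.3, 30.3 and 118 CPM with MafA, and 32.5, 35.3 and 36.7 CPM with Pdx1+MafA, and with the phospho-mutant 24.4, 26.97 and 62.4 CPM with Ngn3+Pdx1, 48.02, 32.7 and 52.1 CPM with Ngn3+MafA, and 76.2 and 16.1 CPM with Ngn3+Pdx1+MafA. The highest value, in 6SA MafA replicate 3, came from the sample of low content, and the Ngn3-positive and Ngn3-negative ranges overlapped (log2 fold change 0.06, SE 0.23, adjusted p = 1).

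**Figure D3:**
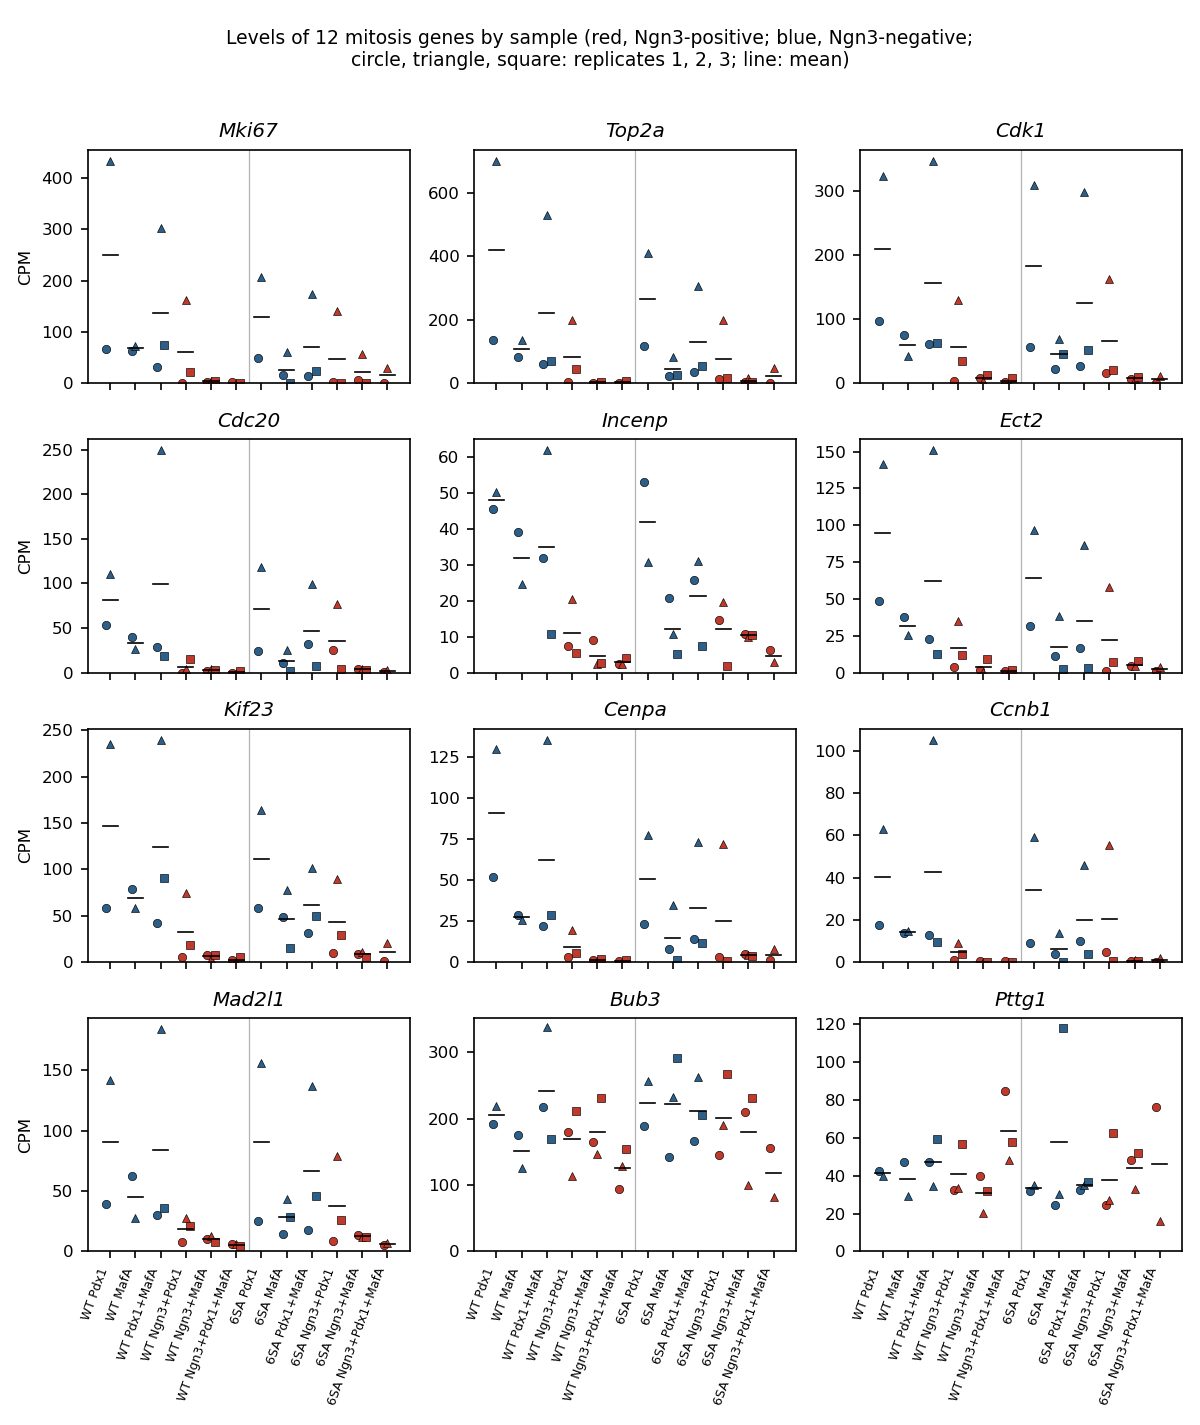
CPM of 12 mitosis genes in each sample by condition, with Ngn3-positive samples in red, Ngn3-negative ones in blue, circle, triangle and square for replicates 1, 2 and 3, and a line at the mean. For the first 10 genes most red points of WT cultures lie below all blue points of WT cultures, with triangles of Ngn3+Pdx1 as the exceptions. In phospho-mutant cultures most red points lie below all blue points for Top2a, Cdk1, Kif23 and Mad2l1. For Incenp, Ect2, Cenpa, Cdc20, Ccnb1 and Mki67 most red points there lie above the lowest blue point, that of MafA replicate 3. Bub3 and Pttg1 show no split in either kind of culture.

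All 5 kinetochore genes were lower. Cenpa, the histone H3 variant that marks centromeres (chr5:30666777-30674830), was at 51.8 and 129.7 CPM with Pdx1, 28.7 and 25.6 CPM with MafA, and 22.1, 135 and 28.5 CPM with Pdx1+MafA in WT cultures. With Ngn3 its levels were 3.05, 19.2 and 5.58 CPM with Ngn3+Pdx1, 1.13, 0.782 and 1.97 CPM with Ngn3+MafA, and 0.567, 0 and 0.931 CPM with Ngn3+Pdx1+MafA. The WT sets did not overlap. In 6SA cultures Cenpa had 23.2 and 77.6 CPM with Pdx1, 7.84, 34.5 and 1.32 CPM with MafA, and 14.01, 73.4 and 11.9 CPM with Pdx1+MafA. Phospho-mutant samples had Cenpa at 3.13, 71.96 and 0.318 CPM with Ngn3+Pdx1, 4.95, 4.26 and 3.51 CPM with Ngn3+MafA, and 1.02 and 7.73 CPM with Ngn3+Pdx1+MafA. Replicate 2 of 6SA Ngn3+Pdx1 lay close to the highest 6SA Ngn3-negative values (over the 6 pairs log2 fold change -3.38, SE 0.56, adjusted p = 5.14e-05). Ndc80 and Nuf2, subunits of the microtubule-binding Ndc80 complex, changed by -5.09 and -4.75, and the motor Cenpe and the large coiled-coil protein Cenpf by -2.90 and -2.93.

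The 10 kinesins and spindle proteins were all lower, between -4.49 and -2.09 on the log2 scale. Kif23, the motor of the central spindle (chr9:61915905-61946774), had 58.2 and 236 CPM with Pdx1, 78.6 and 58.6 CPM with MafA, and 42.6, 240.0 and 90.7 CPM with Pdx1+MafA in WT cultures. With Ngn3, Kif23 had 5.06, 74.2 and 18.04 CPM with Ngn3+Pdx1, 7.82, 2.74 and 7.71 CPM with Ngn3+MafA, and 2.27, 0 and 5.85 CPM with Ngn3+Pdx1+MafA. Replicate 2 of Ngn3+Pdx1 was again the only WT sample to reach the Ngn3-negative range. In 6SA cultures Kif23 was at 57.9 and 164 CPM with Pdx1, 48.1, 77.5 and 15.3 CPM with MafA, and 31.6, 102 and 49.6 CPM with Pdx1+MafA. With the phospho-mutant Kif23 was at 9.47, 89.9 and 28.96 CPM with Ngn3+Pdx1, 9.10, 11.2 and 5.81 CPM with Ngn3+MafA, and 0.814 and 20.2 CPM with Ngn3+Pdx1+MafA. Of these 8 samples 3 reached the Ngn3-negative range (over the 6 pairs log2 fold change -2.92, SE 0.47, adjusted p = 3.35e-05). Kif2c, a microtubule depolymerase, changed most (-4.49) and Prc1, which bundles the central spindle, least (-2.09). Kif11, the motor that pushes the poles apart, was at -3.60, Nusap1, a microtubule-bundling protein, at -3.39, Hmmr, a spindle-pole protein, at -3.13, Tpx2, the activator of Aurka, at -3.04, the central spindle motor Kif20a at -2.81, the chromokinesin Kif4 at -2.45 and Kif20b, a kinesin of cytokinesis, at -2.13.

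Cytokinesis was represented by 3 genes, all lower. Ect2, the exchange factor that activates RhoA at the cleavage furrow (chr3:27097222-27153878), was at 48.3 and 141 CPM with Pdx1, 38.04 and 25.3 CPM with MafA, and 22.9, 151 and 12.6 CPM with Pdx1+MafA in WT cultures. Beside Ngn3 Ect2 was at 3.47, 34.7 and 12.1 CPM with Ngn3+Pdx1, 2.02, 0.522 and 9.08 CPM with Ngn3+MafA, and 0.81, 0.146 and 1.86 CPM with Ngn3+Pdx1+MafA. Replicate 2 of Ngn3+Pdx1 lay inside the Ngn3-negative range and the other 8 below it. In 6SA cultures Ect2 had 31.9 and 97.1 CPM with Pdx1, 11.5, 38.7 and 2.11 CPM with MafA, and 16.4, 86.7 and 3.001 CPM with Pdx1+MafA. Its phospho-mutant values were 1.18, 58.4 and 7.002 CPM with Ngn3+Pdx1, 4.40, 4.15 and 7.64 CPM with Ngn3+MafA, and 1.09 and 3.99 CPM with Ngn3+Pdx1+MafA. Only 2 of these 8 lay below all 6SA Ngn3-negative samples, whose lowest was the MafA sample of low content (over the 6 pairs log2 fold change -3.11, SE 0.57, adjusted p = 0.000167). Anln, anillin of the contractile ring, and Racgap1, the partner of Kif23, changed by -2.68 and -2.54.

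Of the groups with more than 1 gene, chromosome structure had the median nearest to 0, at -1.91 on the log2 scale, although all 5 genes were called lower. Top2a, the topoisomerase that untangles sister chromatids (chr11:98992943-99024189), stood out among them. WT cultures had Top2a at 136 and 700.3 CPM with Pdx1, 82.6 and 134 CPM with MafA, and 59.9, 529.9 and 69.5 CPM with Pdx1+MafA. With Ngn3, Top2a was at 2.29, 199 and 44.5 CPM with Ngn3+Pdx1, 1.37, 0.522 and 4.84 CPM with Ngn3+MafA, and 0.243, 1.32 and 5.98 CPM with Ngn3+Pdx1+MafA. Replicate 2 of Ngn3+Pdx1 alone reached the Ngn3-negative range. In 6SA cultures Top2a was at 118 and 410.1 CPM with Pdx1, 23.4, 82.6 and 25.04 CPM with MafA, and 34.7, 305 and 52.7 CPM with Pdx1+MafA. Phospho-mutant cells had 13.4, 199.97 and 14.8 CPM with Ngn3+Pdx1, 2.20, 15.1 and 3.82 CPM with Ngn3+MafA, and 0.61 and 47.2 CPM with Ngn3+Pdx1+MafA. Replicate 2 of Ngn3+Pdx1 and of Ngn3+Pdx1+MafA lay inside the Ngn3-negative range and the others below it (over the 6 pairs log2 fold change -3.56, SE 0.64, adjusted p = 0.000135). The condensin subunits changed less, Smc4 by -1.45, Ncapd2 by -1.42, Ncaph by -1.91 and Ncapg by -2.56.

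Mki67 encodes Ki-67, the coat protein of mitotic chromosomes used as a stain for cycling cells (chr7:135689784-135716361). In WT cultures Mki67 was at 65.99 and 434 CPM with Pdx1, 62.7 and 73.4 CPM with MafA, and 31.2, 303 and 73.6 CPM with Pdx1+MafA. With Ngn3, Mki67 was at 0.0693, 163 and 21.3 CPM with Ngn3+Pdx1, 1.53, 4.56 and 4.24 CPM with Ngn3+MafA, and 2.19, 0 and 0.266 CPM with Ngn3+Pdx1+MafA. Replicate 2 of Ngn3+Pdx1 exceeded 5 of the 7 Ngn3-negative WT samples and the other 8 lay below all 7. In 6SA cultures Mki67 was at 49.2 and 208 CPM with Pdx1, 16.3, 60.3 and 0 CPM with MafA, and 13.9, 175 and 22.9 CPM with Pdx1+MafA. The phospho-mutant samples had Mki67 at 1.63, 141 and 0.955 CPM with Ngn3+Pdx1, 6.11, 57.6 and 1.07 CPM with Ngn3+MafA, and 0.95 and 30.3 CPM with Ngn3+Pdx1+MafA. MafA replicate 3 held no read of Mki67, so no sample lay below that range. Against the other 7 Ngn3-negative samples, the 3 of replicate 2 lay inside the range and the other 5 below it (over the 6 pairs log2 fold change -2.90, SE 0.79, adjusted p = 0.00768).

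The kinds of culture were then compared. In WT cultures 44 of 46 mitosis genes were lower with Ngn3 and none higher, with a median log2 fold change of -3.84, where 4.36% of all genes were called lower and 4.23% higher. In 6SA cultures 11 of 46 were lower and none higher, with a median of -1.85, where 5.98% of all genes were called lower and 8.12% higher. The 5 with the lowest p in WT cultures were Kif20a (-4.37), Incenp (-2.81), Cenpa (-4.87), Ccnb1 (-5.79) and Cdc20 (-4.93). In 6SA cultures they were Mad2l1 (-1.98), Plk1 (-2.71), Cdk1 (-2.83), Ttk (-4.18) and Kif23 (-2.12), on the same scale. Bub3 and Pttg1 were again the members not called in WT cultures. Without replicate 2, 19 genes were called in WT cultures and 3 in 6SA cultures. With a term for the replicate number in the fit, more were called in 6SA cultures, as given at the end. The count in 6SA cultures depended on single samples and on the filter: it was 0 without 6SA Pdx1 replicate 2, 1 without 6SA Ngn3+Pdx1+MafA replicate 1, 2 without replicate 2 of 6SA MafA or of 6SA Pdx1+MafA and 23 without 6SA Ngn3+Pdx1 replicate 2, and it was 39 with no gene filter.

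The order of the samples was counted for each pair of conditions. Every sample of WT Ngn3+MafA lay below every sample of WT MafA for 44 of 46 genes, where 10.7% of all genes did so. For Ngn3+Pdx1+MafA against Pdx1+MafA it was 42 genes, against 11.3% of all genes, and for Ngn3+Pdx1 against Pdx1 27 genes, against 8.77%. In 6SA cultures the counts were 7 beside MafA, against 5.21% of all genes, 18 beside Pdx1+MafA, against 14.6%, and 3 beside Pdx1, against 9.54%. The last is a share near the background. The mean was lower with Ngn3 in all 6 pairs for 41 of the 46 genes, where it was for 10.9% of all genes, the exceptions being Bub1b, Bub3, Pttg1, Kif20a and Ncapd2.

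The difference between the kinds of culture was itself tested. No gene, member or other, was called in the interaction of culture with Ngn3 by edgeR at an adjusted p under 0.05, and DESeq2 called no member either, while edgeR with no gene filter called 20. Of the 46 members, 45 had a smaller decrease in 6SA cultures, with a median difference of 1.96 on the log2 scale, and 20 were under an unadjusted p of 0.05. Cdc25c had the lowest p (log2 difference 6.81, SE 1.94, adjusted p = 1.00), but it was at 0 in all samples of 2 WT conditions. Ngn3-positive cells of the 2 kinds were compared directly, and no member was called: the phospho-mutant had the higher fitted level for 45 of 46, with a median of 1.13 and 15 under an unadjusted p of 0.05. Ngn3-negative cells of 6SA cultures had lower fitted levels than those of WT cultures for 45 of 46, with a median of -0.77, none under an unadjusted p of 0.05 and none called. Both direct comparisons use the samples of the interaction. The percent of all genes called was 0 in each of these 3 comparisons.

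**Figure D4:**
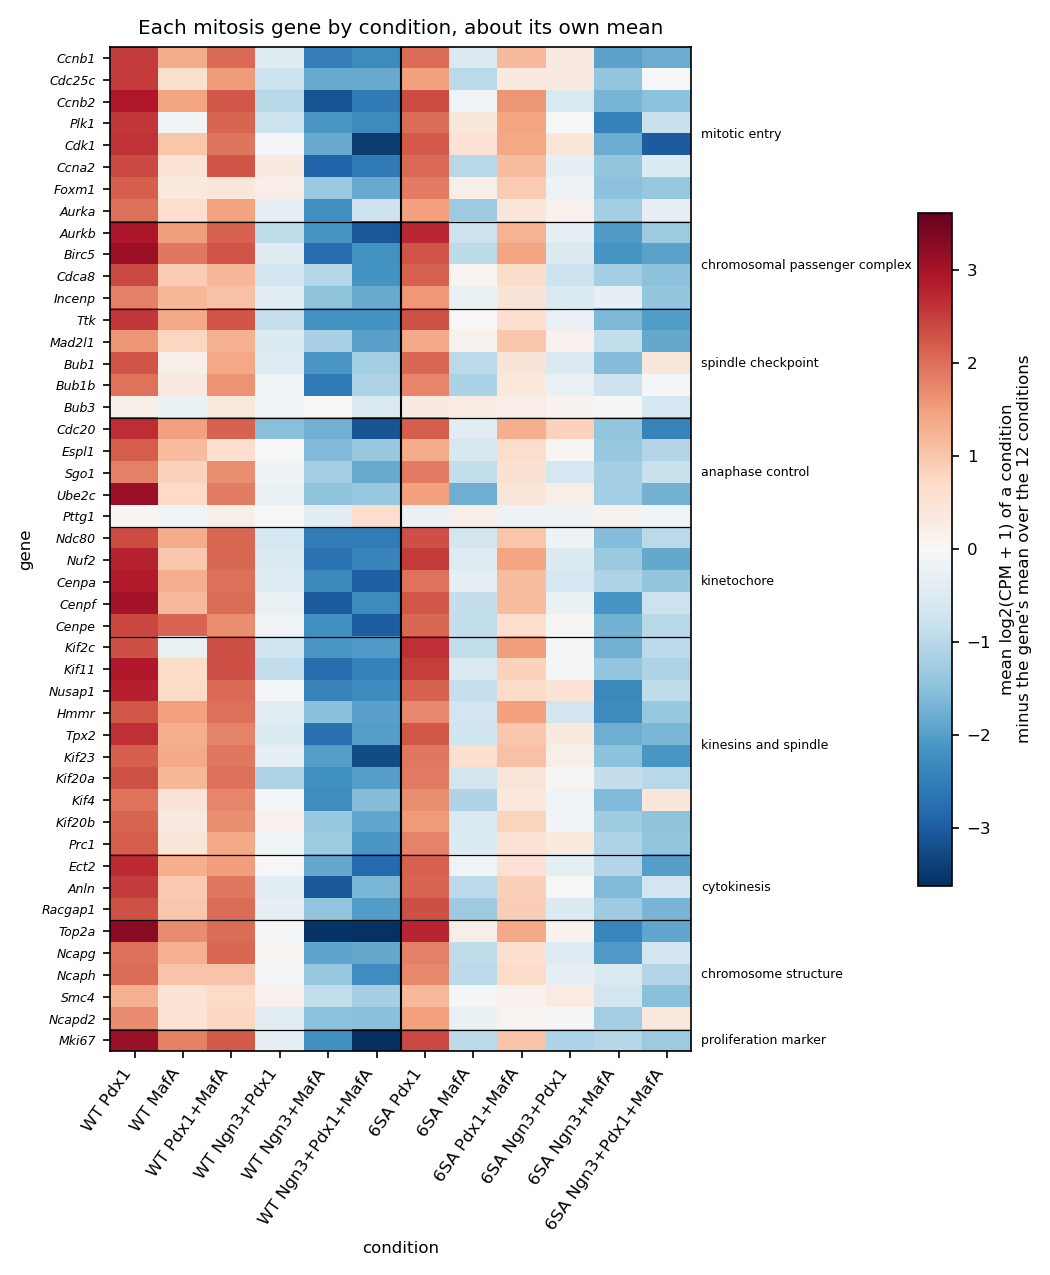
Mean log2(CPM + 1) of each mitosis gene in each of the 12 conditions, as the difference from that gene's own mean over the conditions (red above, blue below), with rows grouped by role. Averaged over the genes, the WT Ngn3+Pdx1+MafA (-2.09) and WT Ngn3+MafA (-1.97) columns are lowest and the WT Pdx1 (2.31) and 6SA Pdx1 (1.91) columns highest.

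Which partner stood beside Ngn3 was the next question. Beside Pdx1 and MafA together 34 of 46 genes were lower with Ngn3, where 8.4% of all genes were called lower and 9.42% higher, with a median log2 fold change of -4.02 (-3.95 with conditions at 0 put at 3 counts). The lowest p values belonged to Mad2l1 (-3.71), Cdc20 (-6.21), Incenp (-2.89), Prc1 (-3.39) and Kif23 (-4.03). Beside MafA 8 of 46 were lower, where 2.17% of all genes were and 2.5% were higher, with a median of -2.93. They were Ccnb1 (-5.14), Plk1 (-3.76), Top2a (-4.13), Kif23 (-2.96), Birc5 (-5.08), Ttk (-6.51), Ccnb2 (-4.07) and Nusap1 (-4.10). Beside Pdx1 none was called, where 0.171% of all genes were called lower and 1.32% higher, with a median of -1.91 and 21 under an unadjusted p of 0.05, while DESeq2 called 1 (0.546% of all genes) and edgeR with no gene filter 35. Incenp came nearest there (log2 fold change -1.96, SE 0.57, adjusted p = 0.0861). No member was called in any test of the difference between these 3 effects, though with no gene filter 2 to 17 were. Fitted differences of the effect beside Pdx1 and MafA from that beside Pdx1 had a median of -1.96, and Cdc20 had the lowest p (log2 fold change -3.85, SE 1.48, adjusted p = 0.509), in a comparison that called 0.0833% of all genes lower and 0.0125% higher. Against the effect beside MafA the median difference was -1.05, with 0.0375% of all genes called lower and 0.0125% higher, and between the effects beside MafA and beside Pdx1 it was -0.90, with 0% called.

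These 3 counts rest on few samples. All 3 were higher in a fit with a term for the replicate number, as given at the end. Without replicate 2 the count beside Pdx1 and MafA was 6 and that beside MafA 0. Leaving out single samples moved the count of 34 to 14 without 6SA Ngn3+Pdx1+MafA replicate 1, to 20 without WT Pdx1+MafA replicate 2 and to 21 without 6SA Pdx1+MafA replicate 2. DESeq2 called 39 genes lower beside both factors, where it called 9.75% of all genes lower, and 20 beside MafA, where it called 3.55%. The count of 8 beside MafA was 1 without 6SA MafA replicate 2, 4 without WT Ngn3+MafA replicate 3, and 2 without WT MafA replicate 1 or 2, WT Ngn3+MafA replicate 2 or 6SA Ngn3+MafA replicate 1 or 3.

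Within the Ngn3-positive cells the combinations were set against each other. Cells with all 3 factors had lower fitted levels than Ngn3+Pdx1 cells for 45 of 46 genes, with a median log2 fold change of -2.60 and 32 under an unadjusted p of 0.05, but none was called, where 1.35% of all genes were called lower and 0.525% higher. Mad2l1 had the lowest p (log2 fold change -2.22, SE 0.63, adjusted p = 0.0643), and DESeq2 called 18 of the 46 lower, with 4.06% of all genes. Against Ngn3+MafA cells the 3-factor cells had 22 genes lower and 24 higher by fitted value, with a median of 0.46, none called and 1 under an unadjusted p of 0.05, where 1.56% of all genes were called lower and 1.17% higher. Ngn3+Pdx1 cells exceeded Ngn3+MafA cells in the fitted value of all 46 genes, with a median of 2.79 and 39 under an unadjusted p of 0.05. None of these was called, where 0.0875% of all genes were called higher and 0.0458% lower. Ccnb1 had the lowest p (log2 fold change 5.17, SE 1.21, adjusted p = 0.0853), and DESeq2 called 16 of the 46 higher, with 0.917% of all genes. These calls moved with the settings. A fit with a term for the replicate number (replicate block) called members for 3 factors against Ngn3+Pdx1 and for Ngn3+Pdx1 against Ngn3+MafA, with counts given at the end. For 3 factors against Ngn3+Pdx1, 39 members were lower with no gene filter, 18 without replicate 1 and 9 without replicate 3. For 3 factors against Ngn3+MafA, 4 were lower and 5 higher with no gene filter, and 2 higher without replicate 1. For Ngn3+Pdx1 against Ngn3+MafA, 37 were higher with no gene filter and 28 without replicate 1. Without replicate 2 none was called in any of the 3. The 3 comparisons share their samples, and the highest summed levels of Ngn3+Pdx1 cells were those of replicate 2 in both kinds of culture.

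Ngn3-negative cells with Pdx1 had higher fitted values than those with MafA for 45 of 46 genes, by a median log2 fold change of 2.01, with 17 genes under an unadjusted p of 0.05. None was called by edgeR or DESeq2, while edgeR with no gene filter called 23. Prc1 had the lowest p (log2 fold change 2.13, SE 0.74, adjusted p = 1). Pdx1+MafA cells had a median of 1.45 above MafA cells, with 2 under an unadjusted p of 0.05, and of -0.60 against Pdx1 cells, with none under it. Neither comparison called a member by edgeR or DESeq2, while with no gene filter edgeR called 3 in the former and 0 in the latter. The percent of all genes called was 0 in each of the 3.

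**Figure D5:**
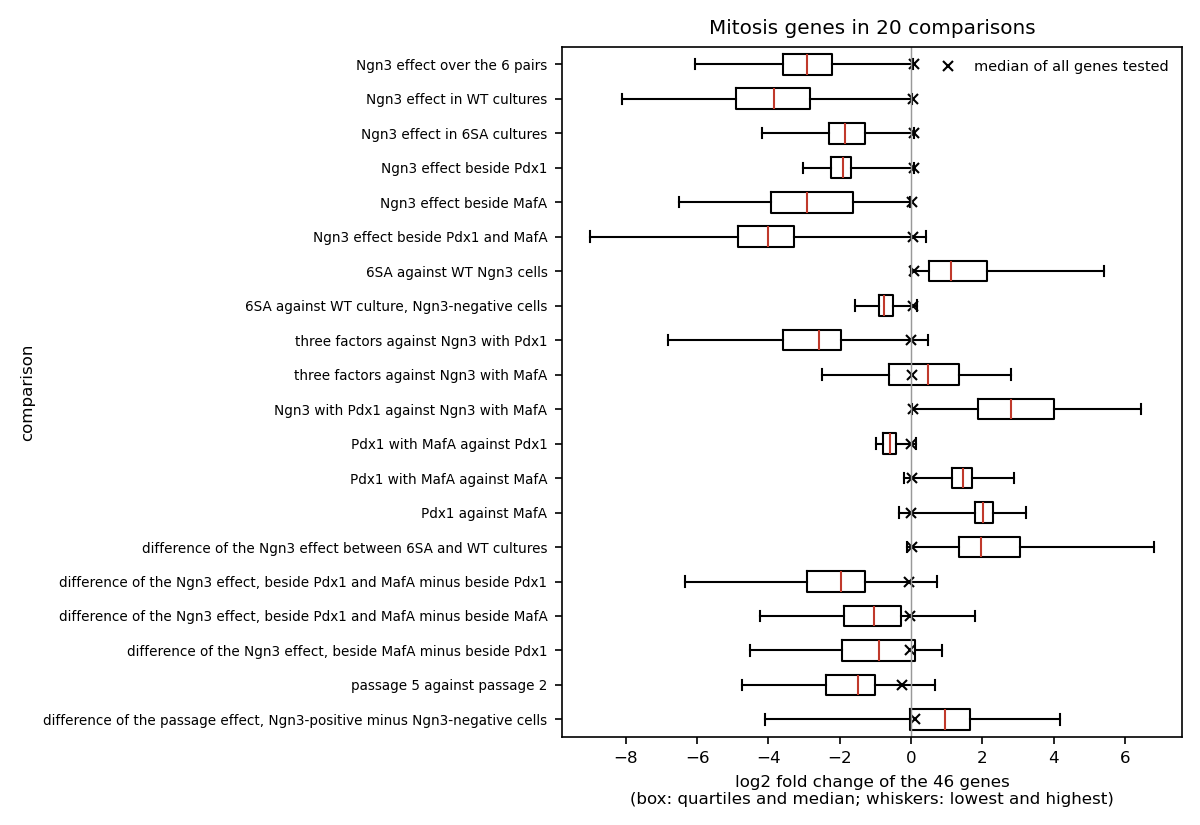
Log2 fold changes of the 46 mitosis genes in each of the 20 comparisons fitted (box: quartiles and median, whiskers: lowest and highest value), with a cross at the median of all genes tested. The crosses stay within 0.12 of 0 except for passage, at -0.26, while the boxes of the 6 tests of the Ngn3 effect lie to the left.

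Passage 5 was compared with passage 2 in a fit with all conditions. There 10 of the 46 genes were lower and none higher, where 5.07% of all genes were called lower and 3.15% higher, with a median log2 fold change of -1.50. The median of all genes was -0.26. The 10 were Ncapd2 (-1.45), Kif20a (-2.42), Cdc25c (-4.74), Cenpf (-3.96), Ttk (-4.59), Racgap1 (-2.30), Bub1 (-2.68), Incenp (-1.22), Ccnb1 (-2.77) and Espl1 (-3.78). DESeq2 called 20 lower and 1 higher, with 11.6% of all genes lower and 5.47% higher. The number called was 33 without replicate 1 and 35 with no gene filter, all lower. Without replicate 2 it was 5, of which 1 was higher, without 6SA Ngn3+Pdx1 replicate 3 it was 2, and without 6SA MafA replicate 3, the sample of low content, or without WT Ngn3+Pdx1 replicate 2 it was 4. It was 5 without replicate 3 of WT Ngn3+MafA or of WT Ngn3+Pdx1 and 6 without 6SA Pdx1+MafA replicate 3. The change with passage did not differ for any member between Ngn3-positive and Ngn3-negative cells at an adjusted p under 0.05 (4 under an unadjusted p of 0.05), with 0% of all genes called by edgeR. DESeq2 called 1 member and 0.212% of all genes higher there.

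Genes next to the 46 in the cell cycle were counted from lists written for the purpose. Of 60 further mitosis genes, 53 were lower over the 6 pairs and 1 was higher, with a median of -2.13 on the log2 scale. Of all genes, 10.5% were called lower there and 11.1% higher. Among those with the lowest p were Hjurp, the chaperone of Cenpa (log2 fold change -1.34, SE 0.22, adjusted p = 4.69e-05), and Melk, a kinase (log2 fold change -4.49, SE 0.76, adjusted p = 6.02e-05). The gene called higher was Zwint, a kinetochore protein (log2 fold change 0.42, SE 0.14, adjusted p = 0.0312). Of 39 DNA replication genes, 32 were lower and none higher, with a median of -1.54. They were led by the helicase subunits Mcm5 (log2 fold change -2.64, SE 0.30, adjusted p = 1.60e-07) and Mcm2 (log2 fold change -1.41, SE 0.17, adjusted p = 4.63e-07) and the histone chaperone subunit Chaf1b (log2 fold change -1.89, SE 0.26, adjusted p = 4.70e-06). Replication genes summed to 501 to 1497 CPM in Ngn3-positive and 731 to 3440 CPM in Ngn3-negative samples.

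Regulators that stand before DNA replication were split. Of 16 CDK inhibitors, G1 cyclins and kinases and pocket proteins, 6 were lower and 4 higher, where 10.5% of all genes were called lower and 11.1% higher. Cdkn1a, the inhibitor p21, had the lowest p and was higher (log2 fold change 1.07, SE 0.18, adjusted p = 4.41e-05). Cdk2, the kinase of the start of replication, was lower (log2 fold change -1.34, SE 0.27, adjusted p = 0.000397), and Rb1, the retinoblastoma protein, higher (log2 fold change 1.07, SE 0.23, adjusted p = 0.000958). Of 10 genes of the DREAM and B-Myb complexes, which hold back or switch on late cell cycle genes, 1 was lower and none higher, a share near the 10.5% of all genes called lower. It was Lin9 (log2 fold change -1.36, SE 0.31, adjusted p = 0.00147). E2f4, its repressor subunit (log2 fold change 0.52, SE 0.27, adjusted p = 0.2), and Lin54, the subunit that binds DNA (log2 fold change -0.60, SE 0.33, adjusted p = 0.232), followed without being called.

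The starts of the members were read for motifs that late cell cycle promoters are known for. RefSeq promoter sequences of GRCm38.p6 were at hand for 38 of the 46 genes, and the 250 bases before each start were searched on both strands. CCAAT, the site of NF-Y, was found before 27 of 38 members (71.1%) and before 37.5% of all 27025 genes with a promoter. TTTGAA, the core of the cell cycle genes homology region bound by the DREAM and B-Myb complexes, was found before 14 members (36.8%) and 18.3% of all genes, and both motifs before 13 members (34.2%) and 6.45% of all genes. The E2F sites TTTCCCGC or TTTGGCGC were found before 1 member (2.63%), Ncapd2, and 1.51% of all genes. TATAAA was found before 1 member (2.63%), Kif2c, and 14.3% of all genes. The RefSeq starts of Kif2c, Cdca8, Kif4 and Pttg1 lie 3867, 2394, 328 and 270 bases inside the genes as GENCODE has them. The windows of these genes, with the TATAAA and TTTGAA of Kif2c, are therefore not before the GENCODE start. Those of Bub3 lie 148 and 272 bases inside, so its motifs are not before the GENCODE start either. Windows of some other members reach into the gene in part, as for Ncapd2 with 115 bases and Cdk1 with 26. Both CCAAT and TTTGAA also stood before the RefSeq starts of Bub3, which was not called lower, while neither stood before Mad2l1, which had the lowest p. Pttg1 had neither in its window, which lies inside the GENCODE gene. A match is a description of letters, not of a bound factor.

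The windows of 5 members are shown because they hold the range of these patterns among the genes with values above, from both motifs (Mki67, Top2a, Cdk1, Cdc20) to neither (Mad2l1). Each gives the 250 bases before the start, 5′ to 3′ on the gene's strand, with CCAAT and the motif TTTGAA in capitals, each also where it stands on the other strand (ATTGG, or for the latter TTCAAA).

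Mki67 (chr7:135716380-135716629, minus strand): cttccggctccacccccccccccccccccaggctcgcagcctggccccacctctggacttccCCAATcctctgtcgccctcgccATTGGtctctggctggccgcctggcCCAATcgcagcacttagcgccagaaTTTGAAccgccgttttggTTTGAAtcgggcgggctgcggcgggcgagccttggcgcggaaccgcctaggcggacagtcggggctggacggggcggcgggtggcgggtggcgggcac

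Top2a (chr11:99024190-99024439, minus strand): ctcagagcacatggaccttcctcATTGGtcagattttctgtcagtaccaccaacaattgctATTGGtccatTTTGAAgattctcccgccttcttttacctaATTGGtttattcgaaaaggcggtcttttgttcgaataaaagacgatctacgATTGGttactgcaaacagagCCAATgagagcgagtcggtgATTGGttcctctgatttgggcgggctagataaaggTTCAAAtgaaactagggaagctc

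Cdk1 (chr10:69352913-69353162, minus strand): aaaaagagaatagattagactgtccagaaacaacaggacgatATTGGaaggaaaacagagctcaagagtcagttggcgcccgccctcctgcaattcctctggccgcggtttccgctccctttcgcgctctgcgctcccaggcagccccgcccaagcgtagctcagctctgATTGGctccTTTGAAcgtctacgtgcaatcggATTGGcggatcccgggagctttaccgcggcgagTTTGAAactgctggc

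Cdc20 (chr4:118437344-118437593, minus strand): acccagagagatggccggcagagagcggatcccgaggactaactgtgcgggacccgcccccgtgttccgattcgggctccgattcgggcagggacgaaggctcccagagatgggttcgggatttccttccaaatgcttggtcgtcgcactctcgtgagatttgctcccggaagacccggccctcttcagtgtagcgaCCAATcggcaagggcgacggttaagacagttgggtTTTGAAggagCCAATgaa

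Mad2l1 (chr6:66534971-66535220, plus strand): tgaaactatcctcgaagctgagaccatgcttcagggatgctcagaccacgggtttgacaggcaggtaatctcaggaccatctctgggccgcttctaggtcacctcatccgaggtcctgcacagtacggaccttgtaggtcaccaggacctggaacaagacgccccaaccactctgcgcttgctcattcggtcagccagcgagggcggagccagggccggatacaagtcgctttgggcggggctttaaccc

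In Cdk1 the TTTGAA nearest to the RefSeq start began 15 bases before it. In Cdc20 the single TTTGAA began 18 bases before the RefSeq start, and each had a CCAAT or ATTGG further upstream. Top2a held 6 copies of CCAAT or its reverse complement, and Mki67 held 3.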

How the data were processed

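Pools of 50 cells were sorted and sequenced as single-end 50 bp reads. Per the labels and the study's methods, the authors aligned them to the mouse genome mm10 with GSNAP and assigned them to Ensembl genes with HTSeq (0.5.3p3), and the strand setting is not given in the sources used here. They deposited raw counts per gene and library, without normalization, with technical repeats separate. The table held 46078 genes and 92 spike-in sequences. Reads counted as in no gene or as ambiguous made up 18.2 to 42.9% of each library, with unaligned reads set aside. Rows that name no gene were left out.

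Libraries were kept with over 1000000 gene counts, under 25% spike-in counts and over 10000 detected genes, and technical repeats were summed. Sample totals were 2579583 to 19461008 counts (median 8490758.5). A gene was tested when 5 or more libraries held it and its log2(CPM + 1) had a variance above 0.001, which left 24004. CPM used TMM factors. The test was edgeR (4.0.16, R 4.3.3) with its legacy quasi-likelihood fit, 1 mean per condition over all 12 conditions, Benjamini-Hochberg adjustment over all genes and a threshold of 0.05. Passage was a further term in its own fit. A standard error is the absolute log2 fold change over the square root of F. The p-values measure the spread between biological replicates as labelled. Steps were tested on simulated data. Alternatives were DESeq2 (1.42.0), other scalings, gene filters, libraries and fits, and leaving out replicates and samples.

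Values by sample are given for Mki67, Top2a, Cdk1 and the gene of lowest p in each role. Elsewhere all called members were named up to 10, otherwise the 5 of lowest p, and other lists by the 3 of lowest p, except for genes that are not reported here. Bub3 and Pttg1 were added after their values were seen. Members and lists were chosen with earlier results of these data known. Positions are GRCm38 from GENCODE, and promoters are from RefSeq.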

Additional observations from a re-analysis of the deposited data

How the results depend on the processing

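Over the 6 pairs 44 genes were called, with 44 by DESeq2, and the 10 genes whose samples are given (Bub3 and Pttg1 apart) stayed lower and past the threshold in all 44 settings. Counts elsewhere moved more, and the cause was not tested. DESeq2 called 1 (edgeR 0) beside Pdx1, 20 (8) beside MafA, 18 (0) for 3 factors against Ngn3+Pdx1, 16 (0) for Ngn3+Pdx1 against Ngn3+MafA, 21 (10) for passage and 1 (0) for passage by Ngn3. With no gene filter the counts were 39 (11) in 6SA cultures, 35 beside Pdx1, 41 beside MafA, 18 for 6SA against WT Ngn3 cells, 39, 9 and 37 among the Ngn3-positive combinations, 3 for Pdx1+MafA and 23 for Pdx1 against MafA, 20 for the culture interaction, 17, 9 and 2 for those between partners, 35 for passage and 5 for passage by Ngn3. In 6SA cultures plain totals gave 4, the first technical repeat 5 and the fit without the legacy setting 22. The last gave 1 beside Pdx1. For 3 factors against Ngn3+Pdx1 it gave 5, the first repeat 1 and all libraries 8, and for Ngn3+Pdx1 against Ngn3+MafA it gave 1 and the first repeat 1. The first repeat gave 5 for passage. The share of all genes called was not computed with no gene filter, in these other settings or with samples left out. The counts of members there, here and above, therefore cannot be set beside a background.

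The labels put replicates 1 and 2 at passage 2 and replicate 3 at passage 5. They do not say whether samples of the same number came from 1 culture, so the main fit left them unpaired. In the data, 12 of 14 same-numbered pairs had a correlation of deviations over 0.1 (-0.387 to 0.746, over 5000 genes). Of 32 samples, 28 correlated best with their own number, so part of the spread was shared by number. A fit with a replicate block gave 45 genes over the 6 pairs, 27 in 6SA cultures, 3 beside Pdx1, 22 beside MafA, 43 beside both, 16 for 3 factors against Ngn3+Pdx1, 9 for Ngn3+Pdx1 against Ngn3+MafA and 15 for passage. Of all genes, this fit called lower 12.9% over the 6 pairs, 8.75% in 6SA cultures, 0.725% beside Pdx1, 3.73% beside MafA and 10.7% beside both. It called lower 2.94% for 3 factors against Ngn3+Pdx1 and 8.28% for passage. For Ngn3+Pdx1 against Ngn3+MafA it called 0.687% higher.

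Leaving out 1 replicate number or 1 sample gave 34 to 44 genes over the 6 pairs, 19 to 44 in WT and 0 to 23 in 6SA cultures, 0 to 1 beside Pdx1, 0 to 21 beside MafA, 6 to 40 beside both, 0 to 2 for 6SA against WT Ngn3 cells, 0 to 18, 0 to 2 and 0 to 28 among the Ngn3-positive combinations, 2 to 33 for passage and 0 to 1 for passage by Ngn3. The other comparisons stayed at 0. For 3 factors against Ngn3+Pdx1 the count was 5 without 6SA Ngn3+Pdx1 replicate 1, 4 without WT Ngn3+Pdx1 replicate 1 or WT Ngn3+Pdx1+MafA replicate 3, and 1 without 6SA Ngn3+Pdx1+MafA replicate 2. Conditions left with 1 sample were assumed to vary like the others. Depth limited genes at 0 counts, where a level under 0.136 to 1.01 CPM was not detectable.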
